A study of Homo sapiens with 10 samples.

Results

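The genes described here encode the HLA molecules that show peptides at the cell surface and the proteins that cut, transport and load those peptides or switch these genes on. They are 31 of the 57955 genes in the files, chosen by gene symbol, with 18 of the class I pathway and 13 of the class II pathway. They were followed in 5 BRAF-mutant melanoma cell lines, WM983A, WM278 and WM902B from primary tumours and WM983B and WM1617 from metastases. Each line was sequenced as the sensitive original and as its E+BRes derivative, which had been grown in rising doses of the BRAF inhibitor encorafenib and the MEK inhibitor binimetinib, starting at 1 nM and reaching 200 nM in 3 to 5 months, and was then maintained at 200 nM of both. WM983A and WM983B came from one patient, as did WM278 and WM1617, so the 5 lines are not fully independent, and all 10 libraries carry the BRAFV600E mutation. The resistant cells were in drug and the sensitive cells were not, so acquired resistance and the presence of drug cannot be told apart.

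Class I molecules, a heavy chain such as HLA-B bound to beta-2-microglobulin, show peptides from inside the cell to CD8+ T cells. Peptides are cut by the proteasome, in which interferon exchanges standard subunits for PSMB8, PSMB9 and PSMB10, are pumped into the endoplasmic reticulum by TAP1 and TAP2, are trimmed by ERAP1 and ERAP2 and are loaded with the help of tapasin (TAPBP), calreticulin, calnexin and PDIA3. Class II molecules show peptides from endosomes to CD4+ T cells. They need the invariant chain CD74, which cathepsin S (CTSS) degrades, and HLA-DM for loading. NLRC5 and CIITA are the transactivators of the class I and class II genes, and neither binds DNA alone. Class II molecules are mostly found on professional antigen-presenting cells, but some melanoma cells carry them.

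The counts of genes within the major histocompatibility complex (MHC) on chromosome 6 were low in these files, which limits 20 of the 31 genes. Between HLA-F and TAPBP, from position 29722775 to 33314284 of GRCh38, 53 of 146 protein-coding genes (36.3%) had under 1 count in every library, against 9.37% of the 19470 other protein-coding genes. Only 17.8% had over 100 counts in any library, against 64.5% elsewhere. TUBB and LSM2, which nearly all cells express, were listed at 0 in all libraries and CLIC1, likewise ubiquitous, did not exceed 0.247 counts (3 genes picked after their values were seen). The genome assembly carries this region again on alternate contigs, and for 9 of the 20 genes every 75-base window of the exons was also found unchanged on one of the 16 alternate contigs of chromosome 6. TAP1 and HLA-DPA1, with 100% of windows repeated, were listed at 0 throughout. HLA-B had 60.7% of windows repeated, HLA-C 84.5%, HLA-DRB1 7.67% and HLA-DQB1 2.82%. TAPBP, also at 100%, still had up to 2714 counts, so the share does not by itself set the count. Whether the alignment used these contigs, and how reads with several alignments were counted, is not given in the sources used here, and their part in the low counts was not tested. Levels of genes inside the MHC are therefore compared between libraries and not between genes, and a 0 is given as listed. The 11 genes outside the MHC (B2M, PSMB10, NLRC5, ERAP1, ERAP2, CALR, CANX, PDIA3, CD74, CIITA and CTSS) do not share this limit. HLA-B and HLA-C share long stretches of sequence and vary between people, so reads of the pair may have been split or lost differently in each line. PSMB9 overlaps TAP1 and PSMB8 on the opposite strand, and HLA-DPB1 overlaps HLA-DPA1, and whether the counting used strand is not given in the sources used here.

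**Figure D1:**
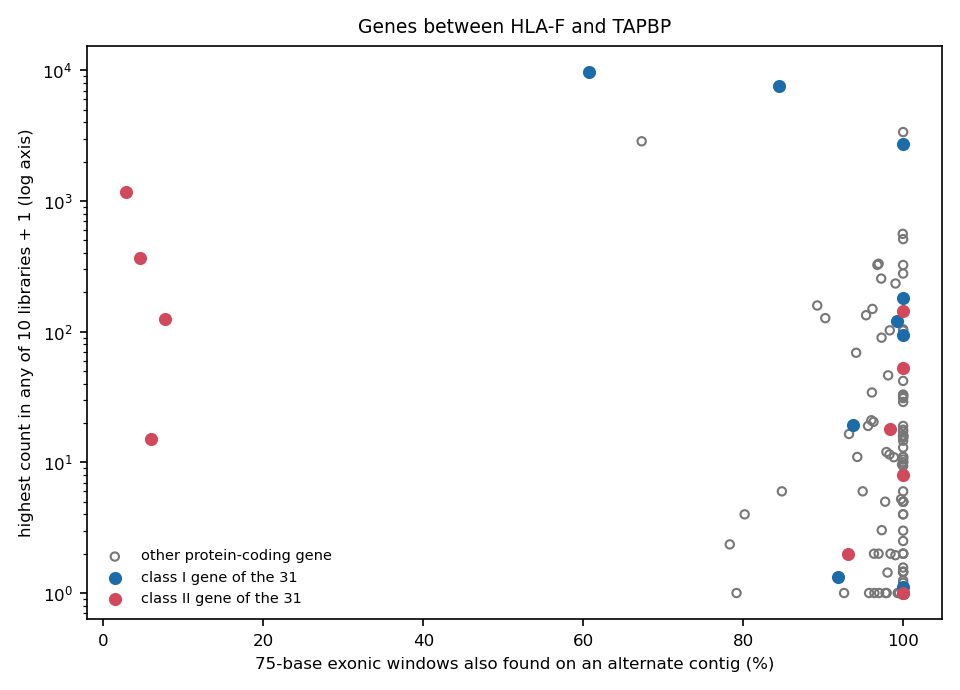
Each point is a protein-coding gene between HLA-F and TAPBP, with the share of its 75-base exonic windows that also occur on an alternate contig (horizontal axis, %) against its highest count in any of the 10 libraries with 1 added (vertical log axis), and the class I genes of the 31 are in blue, the class II genes in red and other genes open. Of the 146 genes, 53 lie below 1 count, while HLA-B and HLA-C, with 60.7% and 84.5% of windows repeated, are the highest of the blue points.

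Total counts were 13693922 to 18033247 per library, and 17288 genes passed the filter on low counts. Over these genes each resistant library correlated best with its own sensitive line (r of log2 levels 0.869 to 0.976), except resistant WM983A, which had r = 0.787 with sensitive WM983A and 0.813 with sensitive WM902B. Group comparisons that rest on WM983A are therefore also given without it. The ratios within WM983A have the same limit, since its resistant library was closer to sensitive WM902B. Whether those ratios are a change within a single line was not tested. The summed level of 7 melanocytic markers lay between 6522 and 68411 normalised counts (counts divided by a size factor for each library) in the sensitive libraries, and in the resistant ones between 1364 (WM983A) and 67319 (WM1617). SOX10, a defining factor of the lineage, was at 98.4, 192 and 10.1 normalised counts in resistant WM983A, WM983B and WM902B and at 4165 or more elsewhere. The differences of the antigen presentation genes in those 3 lines thus coincided with low SOX10. The other markers did not all set the same lines apart. WM278 was low in both states for PMEL (67.2 sensitive, 65.2 resistant), TYR (8.58 and 8.98) and MITF (163 and 220). MITF was still at 3347 in resistant WM902B, and MLANA went from 13.7 to 60.2 in WM983B. The part of the lineage state in the values was not tested. In the edgeR fit with the cell line as a block the pigment enzyme TYR was lower past an unadjusted p of 0.05, with a log2 fold change of -3.92 (adjusted p = 0.461). Among 10 leukocyte markers the pan-leukocyte gene PTPRC had at most 5.41 normalised counts, and the lymphocyte genes CD3E and MS4A1 at most 1.02. Myeloid genes of the list were higher in some libraries, with CD14 at 5.04 in sensitive and 77.3 in resistant WM983B, FCER1G at up to 202 in resistant WM1617, LYZ at up to 54.3 in sensitive WM983B and CSF1R at up to 16.3 in resistant WM983B. LYZ was lower past the same threshold in the blocked fit (log2 fold change -3.40, adjusted p = 0.466 by edgeR). Their part in the class I and class II values was not tested. The summed level of the 10 was 21.4 to 947 in sensitive and 8.12 to 840 in resistant libraries, and ITGAX made up most of the highest sums, both in WM1617. In bulk RNA, fewer cells with a transcript and less transcript per cell cannot be told apart.

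The promoters of 6 genes described below are shown first, chosen after their values were seen as examples of each class among the genes with a window, since CIITA and NLRC5 act through elements upstream of these starts. Each is the 250 bases before the transcription start from RefSeq (GRCh38.p14), written 5′ to 3′, for 3 class I genes and 3 class II genes. Capitals mark matches, on either strand, of the Y box CCAAT, bound by NF-Y, of the interferon-stimulated response element core GAAANNGAA and of the NF-κB enhancer A GGGNNTTCC, and overlapping matches run together.
HLA-B, chr6:31357180-31357429, minus strand: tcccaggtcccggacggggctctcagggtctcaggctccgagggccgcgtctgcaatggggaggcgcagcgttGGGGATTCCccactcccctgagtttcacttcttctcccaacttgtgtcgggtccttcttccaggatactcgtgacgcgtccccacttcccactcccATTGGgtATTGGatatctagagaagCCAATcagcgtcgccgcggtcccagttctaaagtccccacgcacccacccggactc
HLA-C, chr6:31272093-31272342, minus strand: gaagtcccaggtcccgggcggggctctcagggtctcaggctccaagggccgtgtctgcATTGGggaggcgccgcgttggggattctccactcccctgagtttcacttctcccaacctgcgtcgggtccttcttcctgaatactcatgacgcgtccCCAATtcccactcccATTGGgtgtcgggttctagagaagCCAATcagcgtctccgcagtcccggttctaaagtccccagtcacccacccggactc
B2M, chr15:44711267-44711516, plus strand: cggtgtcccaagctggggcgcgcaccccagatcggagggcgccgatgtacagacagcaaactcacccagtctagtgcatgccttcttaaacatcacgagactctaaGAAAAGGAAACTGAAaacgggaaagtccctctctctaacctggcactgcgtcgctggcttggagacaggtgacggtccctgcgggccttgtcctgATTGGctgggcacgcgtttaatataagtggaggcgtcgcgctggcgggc
CD74, chr5:150412911-150413160, minus strand: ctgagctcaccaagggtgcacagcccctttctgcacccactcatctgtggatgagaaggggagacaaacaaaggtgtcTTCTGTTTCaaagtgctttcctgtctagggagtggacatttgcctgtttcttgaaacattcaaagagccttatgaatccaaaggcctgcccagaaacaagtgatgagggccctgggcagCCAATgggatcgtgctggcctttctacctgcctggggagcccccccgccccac
HLA-DRB1, chr6:32589849-32590098, minus strand: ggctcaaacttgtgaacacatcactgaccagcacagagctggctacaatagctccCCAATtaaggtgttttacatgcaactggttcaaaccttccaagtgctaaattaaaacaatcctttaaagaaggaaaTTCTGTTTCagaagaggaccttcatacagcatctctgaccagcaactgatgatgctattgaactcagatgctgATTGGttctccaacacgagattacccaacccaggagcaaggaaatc
HLA-DQB1, chr6:32666658-32666907, minus strand: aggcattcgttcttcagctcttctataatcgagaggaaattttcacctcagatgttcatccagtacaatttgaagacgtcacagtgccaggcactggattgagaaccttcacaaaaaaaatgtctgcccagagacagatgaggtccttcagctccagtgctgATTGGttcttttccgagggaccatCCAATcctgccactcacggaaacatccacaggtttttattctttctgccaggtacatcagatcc

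All 6 held a Y box, whose match nearest the start began 46 to 64 bases before it. The motif is common, since 32% of all 35116 windows of this length held it, and 17 of the 25 genes with a window did. The interferon element was matched in B2M by a pair of overlapping copies 144 and 138 bases before the start, and in CD74 and HLA-DRB1 on the other strand. Over the 25 genes it was matched in 10, and over all windows in 6.88%. The enhancer A motif was matched in HLA-B, 177 bases before the start, and in 4 of the 25 genes, against 5.78% of all windows. The X box searched for, CCTNGNAAC, was matched in 4 of the 25 and in 3.57% of all windows, but in none of the 6 shown. A match is a description of the letters and not of binding.

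Class I genes did not move as one across the lines. In WM983B, WM278 and WM902B the class I molecules HLA-B, HLA-C and B2M were all 2-fold or more above the sensitive library, while in WM983A HLA-B and B2M were lower and in WM1617 none of the 3 differed by as much as 2-fold. NLRC5, the class I transactivator, was highest in the resistant libraries in which HLA-B was highest.

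HLA-B, one of the classical heavy chains (chromosome 6, 31353872 to 31367067, minus strand), had normalised counts of 1293, 1254, 321, 1229 and 561 in sensitive WM983A, WM983B, WM278, WM1617 and WM902B, and 48.7, 7899, 1029, 946 and 10081 in the resistant libraries in the same order, which is kept below. The groups overlapped, with resistant WM983A below and resistant WM983B and WM902B above all sensitive libraries. The resistant library was 18-fold higher in WM902B, 6.3-fold in WM983B and 3.21-fold in WM278, and it was 26.5-fold lower in WM983A and 1.3-fold lower in WM1617.

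HLA-C, the other classical heavy chain followed here, was at 119, 146, 207, 2193 and 1908 in the sensitive and 134, 650, 555, 3200 and 7843 in the resistant libraries. It was higher in the resistant library of all 5 lines, by 4.46-fold in WM983B, 4.11-fold in WM902B, 2.67-fold in WM278, 1.46-fold in WM1617 and 1.13-fold in WM983A. The range across sensitive lines was wider than any difference within a line, and WM278 and WM1617, from one patient, stood 207 to 2193 in the sensitive state.

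B2M, the light chain shared by all class I molecules (chromosome 15, 44711358 to 44718851, plus strand), was at 8865, 7040, 5027, 5351 and 4113 in the sensitive libraries and at 2731, 21229, 11898, 5112 and 27447 in the resistant ones. Its sensitive levels lay within a narrow range (log2 mean 12.52 ± 0.43 SD, n = 5) and its resistant levels did not (13.28 ± 1.40 SD, n = 5), so that the resistant libraries held both the lowest and the highest values. The resistant library was 6.67-fold higher in WM902B, 3.02-fold in WM983B and 2.37-fold in WM278, 1.05-fold lower in WM1617 and 3.25-fold lower in WM983A.

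Among the non-classical chains, HLA-E, a ligand of the NKG2A receptor, was at 110, 80.6, 9.54, 0 and 0 in the sensitive and 14, 171, 26.2, 0 and 0 in the resistant libraries. It was listed at 0 in both states of WM1617 and WM902B, and in the other 3 lines its differences had the sign of those of B2M. HLA-F did not exceed 17.6 normalised counts, its value in resistant WM983B, and HLA-G stayed under 1 count in all libraries.

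**Figure D2:**
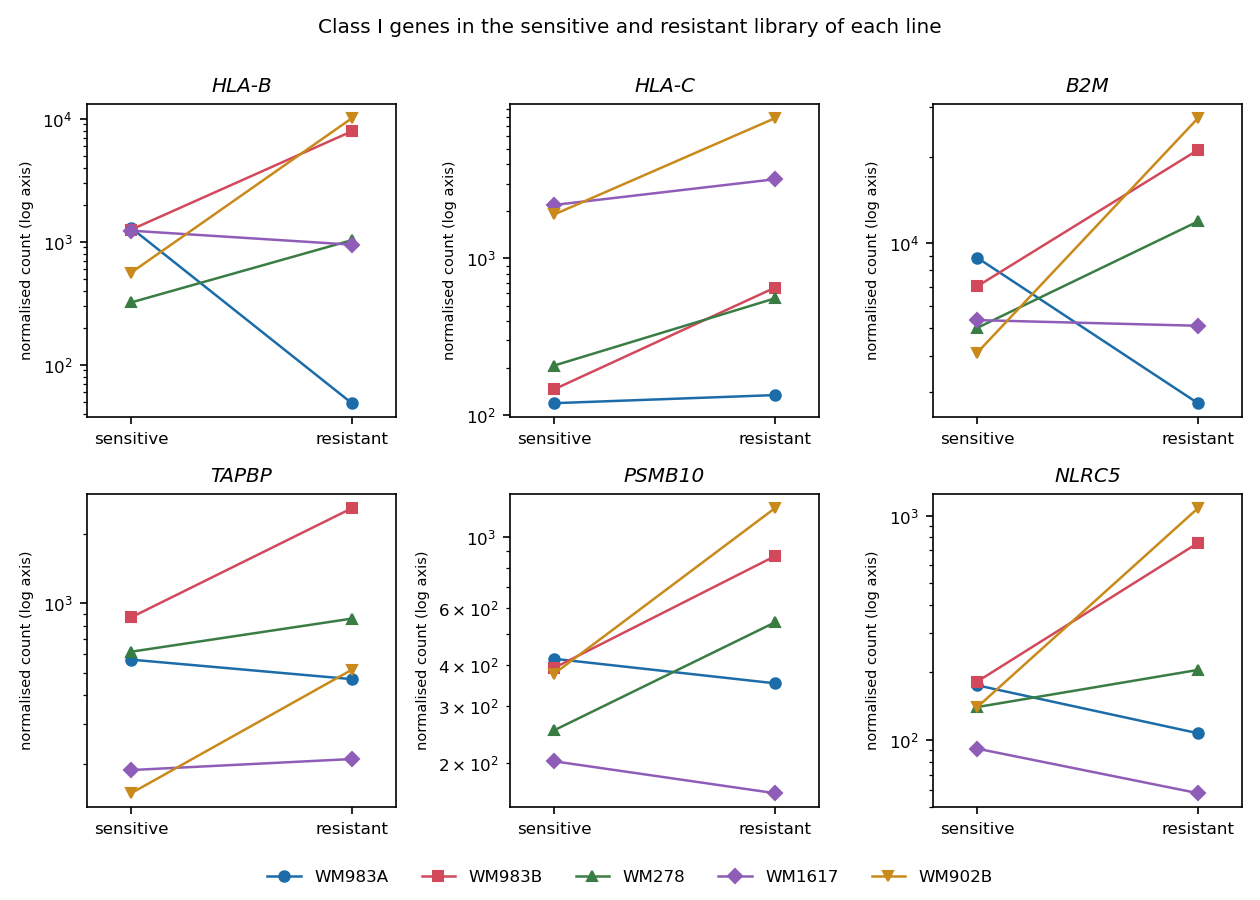
Normalised counts (log axis, a separate scale for each gene) of 6 class I genes in the sensitive and the resistant library of each line, with 1 point per library and a line joining the 2 libraries of a cell line. WM902B, WM983B and WM278 run upwards in all 6 panels and WM983A runs downwards except for HLA-C, where it goes from 119 to 134.

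NLRC5 (chromosome 16, 56989485 to 57083531, plus strand) was at 175, 182, 140, 91.3 and 140 in the sensitive libraries and at 107, 755, 205, 57.8 and 1079 in the resistant ones. Resistant WM902B was 7.69-fold and resistant WM983B 4.14-fold above the sensitive library, WM278 was 1.47-fold higher, and WM983A and WM1617 were 1.64-fold and 1.58-fold lower. In the edgeR quasi-likelihood test of 5 resistant against 5 sensitive libraries NLRC5 had a log2 fold change of 1.60 ± 0.72 (SE), with a Benjamini-Hochberg adjusted p of 0.699, and was higher in 3 of 5 lines. It was the 1 of 17 members tested whose unadjusted p was 0.05 or less, and 4.81% of all 17288 genes were higher and 2.34% lower at this threshold, so the count is close to that background. No gene of the whole table reached an adjusted p of 0.05 in edgeR, and 1235 passed the unadjusted threshold. DESeq2 called 111 genes of the whole table and no member, and limma-voom called none. With the cell line as a block the log2 fold change of NLRC5 was 0.82 (adjusted p = 0.619) and no longer passed the unadjusted threshold. Nor did it pass without resistant WM902B, at a log2 fold change of 0.94, or without resistant WM983B, at 1.32. The same held without the WM983B, WM278 or WM902B line, and without any 1 of the sensitive libraries (1.46 to 1.70). NLRC5 passed without the WM983A line, at 1.92, and without the WM1617 line, at 1.75. It also passed without resistant WM983A, WM278 or WM1617.

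HLA-C was the member with the smallest p once cell line entered the edgeR fit as a block, with a log2 fold change of 1.28 ± 0.35 (SE) and an adjusted p of 0.461. Without the block its log2 fold change was 1.44 ± 1.16 (SE, adjusted p = 0.828), and it was 0.31 without resistant WM902B and 0.77 without both WM902B libraries. It was the only member of 17 past the unadjusted threshold in the blocked fit, where 5.7% of all genes were higher and 4.99% lower. DESeq2 with the same block, an alternative added after the data were seen, gave 532 genes of the whole table and 1 member, HLA-C, with an adjusted p of 0.0338. The other members tested had edgeR log2 fold changes between -0.81 (CTSS) and 2.10 (HLA-B), and none other passed the unadjusted threshold in either fit. Without the WM983A line HLA-B, B2M and NLRC5 passed it, all higher, of 16 members tested, where 851 of 17465 genes passed. In that fit 0 members reached an adjusted p of 0.05. The median over the 14 class I genes tested was 0.57, against 0.03 over all genes tested. The exact two-sided permutation test took all 252 relabellings of 5 against 5 libraries, with a smallest possible p of 0.00794. In it members had p from 0.23 (CANX) upwards. The groups overlapped for all 31, of which 5 had at most 3 counts in every library and could hardly separate. The share of all genes whose groups overlapped was not counted, so this is a description only.

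Of the 7 loading and transport genes tested, 3 were 2-fold or more higher in resistant WM902B and 2 in resistant WM983B, against 3 and 4 of the 4 class I molecules tested, and in resistant WM983A 3 of the 7 were lower. Over all genes these shares were 15.4% higher in WM902B, 16.2% higher in WM983B and 19.4% lower in WM983A, and with so few genes the counts are a description only. Tapasin (TAPBP), which bridges class I molecules to the peptide transporter, was at 570, 870, 617, 189 and 150 in the sensitive and 469, 2589, 859, 211 and 515 in the resistant libraries. It was 3.42-fold higher in WM902B and 2.98-fold in WM983B, and within 1.39-fold in the other 3 lines. TAP2, a chain of the peptide transporter, did not follow it, with 67, 121, 20.9, 27.7 and 19.3 sensitive and 32.5, 80.6, 11.6, 23.1 and 42.7 resistant counts, higher than the sensitive library in WM902B alone.

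Calreticulin (CALR), a lectin chaperone with many clients other than class I molecules, was at 14424, 14629, 12148, 14216 and 12682 in the sensitive and 10148, 26763, 10228, 18381 and 12929 in the resistant libraries. Calnexin (CANX) was at 9059, 11336, 6422, 10051 and 8688 and then 6613, 5870, 4502, 12200 and 7944, lower in 4 of 5 resistant libraries and by less than 2-fold in each. The disulphide isomerase PDIA3 was at 8520, 5405, 6461, 8844 and 7696 and then 2612, 8741, 5479, 12976 and 7535. Of these 3 chaperones, only PDIA3 passed 2-fold, with a resistant level 3.26-fold lower in WM983A.

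ERAP1, the aminopeptidase that trims peptides in the endoplasmic reticulum, was at 2337, 2718, 1729, 631 and 808 in the sensitive and 429, 2487, 2285, 597 and 1612 in the resistant libraries. It was 5.45-fold lower in resistant WM983A and 1.99-fold higher in WM902B. Its partner ERAP2 was at 119, 86.3, 3031, 88.9 and 30.5 and then 61.5, 272, 2818, 56 and 211. WM278 stood apart from the other lines in both states, including WM1617 from the same patient, and the resistant library was 6.93-fold higher in WM902B and 3.15-fold in WM983B.

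Of the immunoproteasome subunits, PSMB10 lies outside the MHC and was at 419, 393, 252, 202 and 377 in the sensitive and 352, 870, 543, 161 and 1224 in the resistant libraries. It was 3.25-fold, 2.21-fold and 2.15-fold higher in WM902B, WM983B and WM278, the lines in which B2M was higher. PSMB7, the standard subunit that PSMB10 replaces, was within 1.5-fold in 4 lines and lower in WM1617 (log2 ratio -0.63), and the ratio of PSMB10 to PSMB7 counts went from 0.158 to 0.587 in WM902B, from 0.0772 to 0.213 in WM983B and from 0.0784 to 0.215 in WM278, from 0.0751 to 0.0921 in WM1617 and from 0.123 down to 0.0762 in WM983A, with no test and to be read as a change between states only. PSMB9 did not exceed 89.1 normalised counts, its value in resistant WM983B against 17.1 in the sensitive library, and PSMB8 stayed under 1 count in all libraries.

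Class II genes differed widely between lines in both states, with WM1617 low. Their largest within-line differences were in WM983A and WM902B, where class II molecules were lower in the resistant library, and they were higher in resistant WM278. WM902B thus had the highest class I median of the 5 lines and lower class II molecules. Of the 13 class II genes, 3 passed the filter (CD74, CIITA and CTSS) and the 10 others, all inside the MHC, are given as counts.

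CD74, the invariant chain (chromosome 5, 150401637 to 150412969, minus strand), was at 25995, 7762, 10934, 45.6 and 1225 in the sensitive and 28, 13011, 21965, 57.6 and 438 in the resistant libraries. The spread between lines was wide (log2 mean 11.36 ± 3.63 sensitive and 9.52 ± 4.38 resistant, SD, n = 5 each), and the groups overlapped. The resistant library was 928-fold lower in WM983A and 2.8-fold lower in WM902B, and it was 2.01-fold higher in WM278, 1.68-fold in WM983B and 1.26-fold in WM1617. Per kilobase of exon, CD74 was at 5743 in sensitive WM983A and 4853 in resistant WM278, of the order of CALR at 5148 and 3650 in those libraries.

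CIITA, which switches on the class II genes (chromosome 16, 10866222 to 10943021, plus strand), was at 983, 480, 681, 117 and 360 in the sensitive and 128, 312, 905, 124 and 165 in the resistant libraries. Its highest and lowest lines were also those of CD74 in the resistant state, WM278 at the top and WM1617 and WM983A at the bottom. The resistant library was 7.68-fold lower in WM983A, 2.18-fold in WM902B and 1.54-fold in WM983B, and 1.33-fold higher in WM278. In WM983B CD74 was higher and CIITA lower, so the pair did not always move together.

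Cathepsin S (CTSS) was at 925, 1396, 527, 8.69 and 13.2 in the sensitive and 5.82, 940, 390, 4.35 and 293 in the resistant libraries. It was 159-fold lower in resistant WM983A and 22.2-fold higher in resistant WM902B, the line in which CD74 and CIITA were lower. The 3 tested class II genes had edgeR log2 fold changes from -0.81 to -0.37 (median -0.68), and none passed the unadjusted threshold with or without the block. Without the WM983A line the sign of CD74 turned, from -0.37 to 0.83 (adjusted p = 0.978 by edgeR), and CTSS went from -0.81 to -0.26 and CIITA from -0.68 to -0.12.

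HLA-DRA, the invariant alpha chain of HLA-DR, had deposited counts, rounded, of 17, 1, 48, 0 and 12 in the sensitive and 1, 0, 144, 1 and 0 in the resistant libraries. Its partner HLA-DRB1 had 37, 0, 42, 0 and 16 and then 0, 3, 125, 0 and 0. Both were detected in sensitive WM983A, WM278 and WM902B, and in the resistant state above 3 counts only in WM278, where they were 3.05-fold and 3-fold higher. Against a floor of 3 counts in the library listed at 0, HLA-DRB1 was at least 10.6-fold lower in resistant WM983A and at least 5.22-fold lower in resistant WM902B, and HLA-DRA was at least 3.95-fold lower in resistant WM902B.

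HLA-DQB1 had 548 counts in sensitive WM278 and 1162 in the resistant library, and HLA-DQA1 had 20 and 367, so that the normalised level was 2.16-fold and 19-fold higher. HLA-DQB1 was also seen in sensitive WM902B, with 86 counts against 1 in the resistant library, and elsewhere had 4 counts or fewer. HLA-DPB1 had 52 counts in resistant WM278 and 36 in sensitive WM983A, where the resistant library was listed at 0, which is at least 10.3-fold lower. The remaining genes were close to the floor, with HLA-DRB5 at 14 counts at most, HLA-DMB at 17, HLA-DOA at 7 and HLA-DMA at 1. HLA-DRB5 shares much of its sequence with HLA-DRB1, and reads of the pair may have been split between them.

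**Figure D3:**
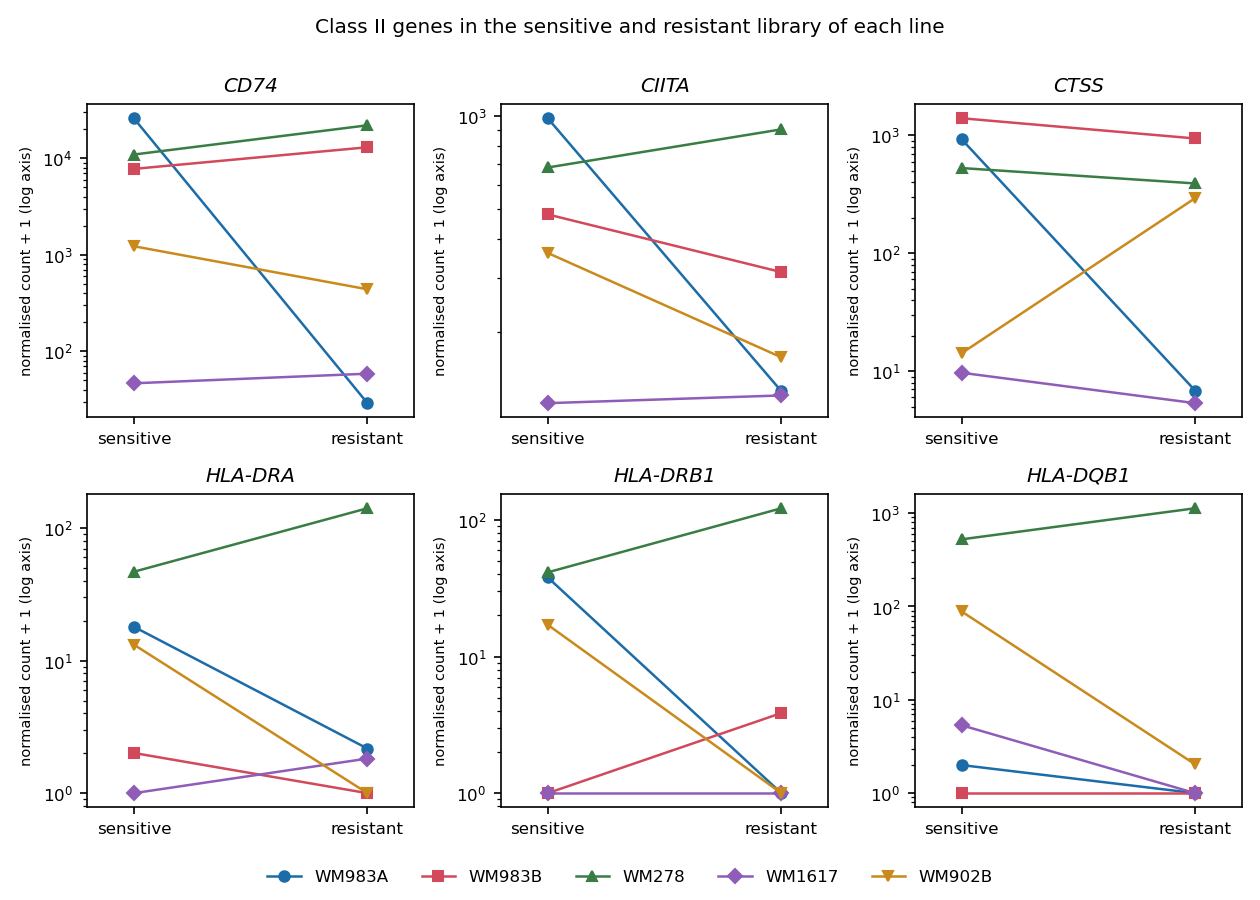
Normalised counts with 1 added (log axis, a separate scale for each gene) of 6 class II genes in the sensitive and the resistant library of each line, with 1 point per library. WM983A goes from 25995 to 28 for CD74, WM278 is the highest resistant line except for CTSS, and the HLA-DRA, HLA-DRB1 and HLA-DQB1 panels reach 0 counts in several libraries.

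Within each line the pattern was counted over the 17 members that passed the filter, with no test, as each line has 1 library per state. In WM983B, 9 of 14 class I genes passed 2-fold upwards in the resistant library and 0 downwards, where 16.2% of all genes were higher and 11.2% lower. In WM902B it was 9 of 14 higher and 0 lower, where 15.4% of all genes were higher and 12% lower. In WM278 it was 5 of 14 and 0, against 12% and 7.02%. WM983A had 0 higher and 6 of 14 lower, against 16.9% and 19.4%, and WM1617 had 0 in either direction, against 2.83% and 3.79%. Of the 3 class II genes tested, all 3 were 2-fold or more lower in resistant WM983A, CD74 and CIITA were lower and CTSS higher in resistant WM902B, and CD74 was higher in resistant WM278, with 0 past 2-fold in WM983B and WM1617.

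The median log2 ratio of the class I genes with over 3 counts in a library of the pair was highest in WM902B (1.77) and WM983B (1.57), followed by WM278 (0.44), WM1617 (-0.07) and WM983A (-0.97), where the medians of all genes tested lay between -0.01 and 0.03. For class II the order was WM278 (1.26 over 10 genes detected), WM983B (0.09 over 4), WM1617 (-0.38 over 4), WM902B (-3.45 over 7) and WM983A (-4.69 over 8). Class I and class II medians thus had opposite signs in WM902B and the same sign in the other lines. Over the members past the filter they were also opposite in WM983B (1.36 and -0.57) and WM1617 (-0.07 and 0.09).

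**Figure D4:**
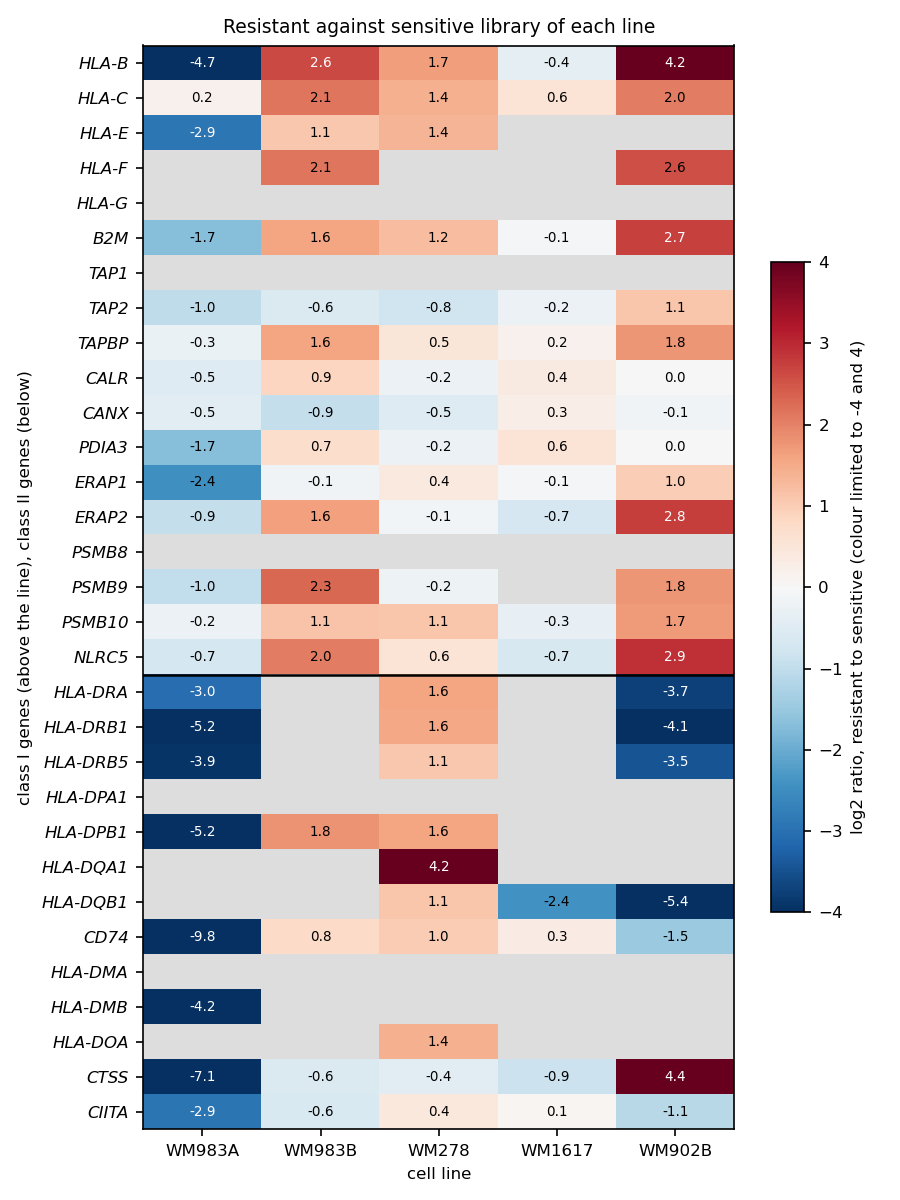
Log2 ratios (resistant over sensitive, normalised counts with 1 added) for the 31 genes in rows and the 5 lines in columns, with the ratio printed in each cell, red for higher and blue for lower in the resistant library and grey where neither library had over 3 counts. WM983A is blue in both classes apart from HLA-C, WM902B is red for most class I genes and blue for the class II molecules, and WM1617 holds the palest cells apart from HLA-DQB1 (-2.42).

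Genes around the pathway were counted from lists of their own. At the unadjusted threshold 4.81% of all genes were higher and 2.34% lower, and with the block 5.7% and 4.99%. With lists this small the counts are a description only. Of 8 genes of interferon-gamma signalling, 1 was higher and 1 lower past the unadjusted threshold, both with and without the block. JAK1, the receptor-associated kinase, differed by 0.52 ± 0.23 on the log2 scale (SE, with an adjusted p of 0.694 by edgeR) and was higher in 5 of 5 lines. IFNGR2, a chain of the receptor, had -1.17 ± 0.42 (SE, adjusted p = 0.632 by edgeR) and was lower in 4 of 5 lines. The transcription factor IRF1 was at 972, 794, 549, 139 and 322 in the sensitive and 532, 3261, 822, 154 and 1711 in the resistant libraries. It had the sign of the B2M difference in WM983A, WM983B, WM278 and WM902B, and was above 2-fold in WM983B (log2 ratio 2.04) and WM902B (2.41). SOCS1, a feedback inhibitor of this pathway, had a log2 ratio of 3.40 in WM983B, from 24.5 to 267 normalised counts, of -1.42 in WM278 and of -1.20 in WM983A. IFNGR1, the ligand-binding chain, had log2 ratios of -1.19 in WM983A, 1.13 in WM278 and 1.21 in WM902B, and IRF2, a repressor that competes with IRF1, had 1.30 in WM902B.

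The 7 genes of the class II enhanceosome, RFX5, RFXAP, RFXANK, NFYA, NFYB, NFYC and CREB1, which bind the promoters that CIITA acts on, had 0 genes past the unadjusted threshold in either fit. Their log2 fold changes lay between -0.17 and 0.32, and of their values within lines only that of RFXAP in WM278 passed 2-fold (log2 ratio 1.05). In WM983A, where CIITA was 7.68-fold lower, their log2 ratios ran from -0.27 to 0.58.

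The next lists are as small, and their counts are likewise to be read beside the 4.81% higher and 2.34% lower of all genes at the unadjusted threshold. With the block these shares were 5.7% and 4.99%. PSME1, a subunit of the proteasome activator, was the 1 gene of 5 in the proteasome list at that threshold in both fits (log2 fold change 1.08 ± 0.36, SE, adjusted p = 0.63 by edgeR), higher in 4 of 5 lines. PSME2, its partner, had a log2 ratio of 1.44 in WM902B, and PSMB6, a standard catalytic subunit, 1.01 in WM983A. Of the 5 endosomal genes, the proteases CTSD (log2 fold change 1.73 ± 0.72, SE, adjusted p = 0.685) and CTSL (1.25 ± 0.48, SE, adjusted p = 0.669) were higher past the unadjusted threshold without the block and 0 genes with it. CTSB, another lysosomal protease, had log2 ratios of 1.72 in WM983B, 1.28 in WM902B and -1.66 in WM983A. IFI30, the endosomal thiol reductase, had a log2 ratio of 2.79 in WM902B, 2.07 in WM278 and 1.15 in WM983B. Of the 6 further loading and peptidase genes, 0 passed without the block and NPEPPS, a cytosolic aminopeptidase, with it (log2 fold change 0.45, adjusted p = 0.467 by edgeR). TAPBPL, which edits peptides on class I molecules, had log2 ratios of 2.43 in WM983B and 1.93 in WM902B. HSPA5, the main chaperone of the endoplasmic reticulum, had -1.18 in WM983A, and the peptidases LNPEP and THOP1 had 1.27 and -1.25 in WM902B, with THOP1 at -1.05 in WM278. Among 7 non-classical presenting and ligand genes, ULBP2, a ligand of NKG2D on natural killer cells, was lower in 5 of 5 lines (log2 fold change -1.06 ± 0.41, SE, adjusted p = 0.669 by edgeR, and 0.461 with the block). MR1, which presents vitamin B metabolites, went from 146 to 860 normalised counts in WM902B and from 126 to 604 in WM278. ULBP3, a further NKG2D ligand, had log2 ratios of -1.57 in WM983A and -2.90 in WM983B, and ULBP1 went from 1 to 36.1 normalised counts in WM983A and from 6.3 to 1.19 in WM983B, where the sensitive count is one rebuilt from the deposited ratio. CD1D, which presents lipids, went from 8.58 to 18.4 in WM278 and did not exceed 5.73 in the other lines. MICB, another NKG2D ligand, went from 3.02 to 7.63 in WM983B, where the sensitive library was at the floor of 3 counts. It lies inside the MHC, with 100% of its windows repeated.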

How the data were processed

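RNA of 10 cultures was sequenced after oligo-dT selection as single-end reads of 75 cycles. Per the labels and the methods of the study, the authors aligned reads with HISAT2 to GRCh38 and quantified genes in StrandNGS, and versions, annotation and treatment of reads with several alignments are not given in the sources used here. The deposited files hold estimated counts per gene, not normalised and 24.1% whole, and a log2 column of the resistant to sensitive ratio after the authors' own normalisation (0 in sensitive libraries), used here only as an alternative. In sensitive WM983B, 455 cells held dates. Their counts were rebuilt from the deposited ratios and all 455 matched the visible digits, and 0 of the 31 genes were among them.

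Estimated counts were rounded and tested with edgeR 4.0.16 (R 4.3.3, quasi-likelihood, TMM, filterByExpr, Benjamini-Hochberg over 17288 genes). The fit was also run on simulated data, with a pass required only at the lower spread tried. That check does not give the power at the spread between these lines. DESeq2 1.42.0, limma 3.58.1, other scalings, no filter, the cell line as a block and leaving out lines or libraries were alternatives. Normalised counts are counts divided by TMM size factors around 1. Log2 ratios add 1. Single genes were compared by an exact permutation test. A floor of 3 counts (0.166 to 0.219 CPM) stands in for 0 and covers counting error only. The SD and SE given also hold the spread between libraries. Each SE was derived from the log2 fold change and the F statistic of its edgeR test, so it adds nothing to the p-value. The lines pair the libraries by design. Deviations from the group means of a line's libraries correlated at 0.54, 0.67, 0.67 and 0.38 for WM983B, WM278, WM1617 and WM902B and at -0.06 for WM983A. Each line and state is 1 culture, so p-values rest on the spread between lines. Without the block this is the spread of levels, and with it the spread of the change within a line.

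Members and lists were chosen with earlier results of these data known. Levels in every library are given for members past the filter that reach 100 normalised counts, and for HLA-DRA, CD74, CIITA and NLRC5, with others chosen to complete the account after their values were seen. Test statistics are given for genes with an unadjusted p of at most 0.05 in either fit. Gene coordinates and exon lengths are from GENCODE on GRCh38. Promoters came from RefSeq (GRCh38.p14) and were found for 25 of 31 genes, the window nearest the annotated start being used. The values of 1 listed gene are not reported here.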

Additional observations from a re-analysis of the deposited data

Results flagged for a closer look

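Among 50 groups of 5 libraries with over 3 counts, resistant WM278 stood apart from the 4 other resistant libraries for 6 class II genes, by the gap to the nearest library against the whole range on the log2 scale (above 0.71). Its normalised counts were 140 for HLA-DRA, 121 for HLA-DRB1, 5.82 for HLA-DRB5, 356 for HLA-DQA1, 1127 for HLA-DQB1 and 6.79 for HLA-DOA. None of the 4 other resistant libraries had over 3 counts for these 6 genes, so each group was included only through resistant WM278. A wide gap was then largely fixed in advance, and no rate of chance flags applies. These genes were measured in the same library and are not independent. The 2 lowest values are close to the floor of 3 counts.

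PDIA3 was lower in the resistant library of all 3 lines of primary origin and higher in both lines of metastatic origin, and the mean log2 ratio of the primary lines minus that of the metastatic lines was -1.28. This difference was not tested, and it rests mainly on WM983A with a log2 ratio of -1.71, against -0.24 in WM278 and -0.03 in WM902B. Without WM983A it was -0.76. PDIA3 was flagged by a rule for differences between groups of lines. The share of all genes with such a split was not counted, so this is a description only.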

How the results depend on the processing

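At an adjusted p of 0.05 edgeR called 0 genes, also with the replicate block (cell line), whereas DESeq2 called 111 and DESeq2 with the block 532. Genes with an unadjusted p of at most 0.05 numbered 1235 of 17288 in edgeR, 1848 with the block and 2595 of 38285 without a filter. They numbered 1469 by DESeq2, 1093 by limma-voom, 2430 by DESeq2 with the block, and 565 to 2387 when a line or library was left out. Members at that threshold numbered 1 (NLRC5), 1 with the block (HLA-C), 3 by DESeq2 (B2M, HLA-B and NLRC5) and 0 by limma-voom, and 0 to 4 when a line or library was left out. The count was 0 without WM983B or WM902B, either as a line or as its resistant or sensitive library, and also without sensitive WM983A or WM1617. It was 4 of 20 without resistant WM1617, where 2387 of 17751 genes passed, the most of any fit that left out a line or library. CIITA was lower at this threshold without the WM278 line. Leaving out the genes with rebuilt counts, which like DESeq2 with the block was chosen after seeing the data, left 1221 genes and 1 member. With 1 library left out of a group, the other libraries supply the spread. The class I medians within a line kept their sign under all scalings, with 10 added, and in the deposited ratios. Class II medians fell in size with 10 added, to -2.22 in WM983A and -1.15 in WM902B. Over the 3 members past the filter they changed sign in WM983B (-0.57) and WM1617 (0.09). In the other lines they kept their sign but went from 1.26 to 0.41 in WM278, from -3.45 to -1.12 in WM902B and from -4.69 to -7.09 in WM983A. The causes were not tested. The low counts of MHC genes limit what can be shown for all class II molecules.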
